A study of Mus musculus with 20 samples.

Results

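RNA of mouse CD8+ T cells exposed for 90 min to IL-2-REH, a partial agonist, was compared with RNA of CD8+ T cells exposed to IL-2 for the same time. The members are 2 of the 20 libraries of the series, chosen by their cell type, cytokine and time point, with 1 library for each cytokine. The cells came from spleen and lymph node of mice recorded as C57BL/6N in the sample labels and as C57BL/6J in the methods, and were purified with a CD8+ T cell isolation kit, without the sort by GFP that the Tregs underwent. Both cytokines were given ex vivo at 200 nM, and IL-2-REH is an IL-2 variant with weakened contact to the common γ chain of the receptor. Set beside this pair are the unstimulated CD8+ library (0 h, hence not matched in time), the 4 hr CD8+ libraries of the same 2 cytokines and dose, and the 90 min libraries of Tregs from B6-Foxp3EGFP mice, with 3 libraries for each cytokine. With a single CD8+ library for each cytokine, the differences have no replicate check and were not tested, so each value below compares these libraries. The question asked of the pair was how much of the early transcriptional response of CD8+ T cells to IL-2 is seen when receptor engagement is weakened.

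IL-2 binds the β chain (Il2rb) and the common γ chain (Il2rg) of its receptor, and the α chain (Il2ra, CD25) raises the affinity. The chains carry the kinases JAK1 and JAK3, which phosphorylate STAT5A and STAT5B, and phosphorylated STAT5 enters the nucleus and binds palindromic DNA sites near its target genes. Among the known targets in T cells are inhibitors of cytokine signaling of the SOCS family, survival and growth genes such as Bcl2, Pim1 and Myc, and effector genes such as Gzmb, whereas Bcl6 is known to be repressed.

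Genes were measured by RPKM, the number of reads on a transcript corrected for its exon length and for how many reads the library had mapped. For each gene the log2 ratio of RPKM + 1 was taken, IL-2-REH against IL-2, so that a negative value means less RNA with IL-2-REH, and the added 1 RPKM shrinks the ratios of weakly expressed genes. Reads on genes came to 45189835 in the IL-2 library and 38201667 in the IL-2-REH library, the highest and lowest totals of the 5 CD8+ libraries. Averaged over the 5 CD8+ libraries, 10021 genes reached 1 RPKM or more. Their log2 ratios had a median of -0.07 and an SD of 0.22, and 96.0% of them lay between -0.5 and 0.5. The label of the cells was borne out by Cd8a (165.2 RPKM after IL-2 and 103 after IL-2-REH), Cd8b1 (213 and 179) and Cd3e (153 and 143), against 0.51 and 0.60 RPKM of Cd4. Summed over 10 B cell markers, RPKM was 4.47 after IL-2 and 4.25 after IL-2-REH, and over the 12 macrophage and monocyte markers listed in the files it was 89.6 and 82.5, most of it from Ctss. The 7 NK cell markers summed to 78.6 and 99.97 RPKM, in which Klrd1, a receptor subunit that CD8+ T cells also carry, took 51.4 and 73.3. No gene of these lists, or of those for plasma cells, neutrophils, dendritic cells, red cells and platelets, or stroma, was past a log2 ratio of 1 in either direction. A gene under 1 RPKM in both libraries cannot pass 1 on this scale, whatever its change. That held for 9 of 10 B cell, 3 of 4 plasma cell, 4 of 6 neutrophil, 6 of 8 dendritic cell and 6 of 7 stromal markers. It also held for 5 of 12 macrophage and monocyte markers and 3 of 8 of red cells and platelets. For these markers the threshold was therefore no check. In bulk RNA, fewer cells of a type and less RNA per cell cannot be told apart.

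The difference between the cytokines was almost entirely in the direction of less RNA with IL-2-REH. A log2 ratio below -1 was found for 81 genes (0.808% of the 10021), and a ratio above 1 for 6 genes (0.0599%). A ratio below -2 was found for 7 genes (0.0699%), which were Cish, Rgs1, Lta, Tnfsf8, Tnf, Gpr34 and Drc1, and no gene was above 2. Small RNAs with exons under 200 bases made up 7 of the 81 lower and 5 of the 6 higher genes, with 8 to 39 reads in the IL-2 library for the former and 1 to 12 for the latter. Over the 9778 longer genes, 74 were lower by over 1 (0.757%) and Bcl6 was the 1 gene that was higher (0.0102%). The exact interval (95%, counting error only) of the read ratio excluded 0 on the log2 scale for all 74, as it did for 5119 of all 9778 longer genes.

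**Figure D1:**
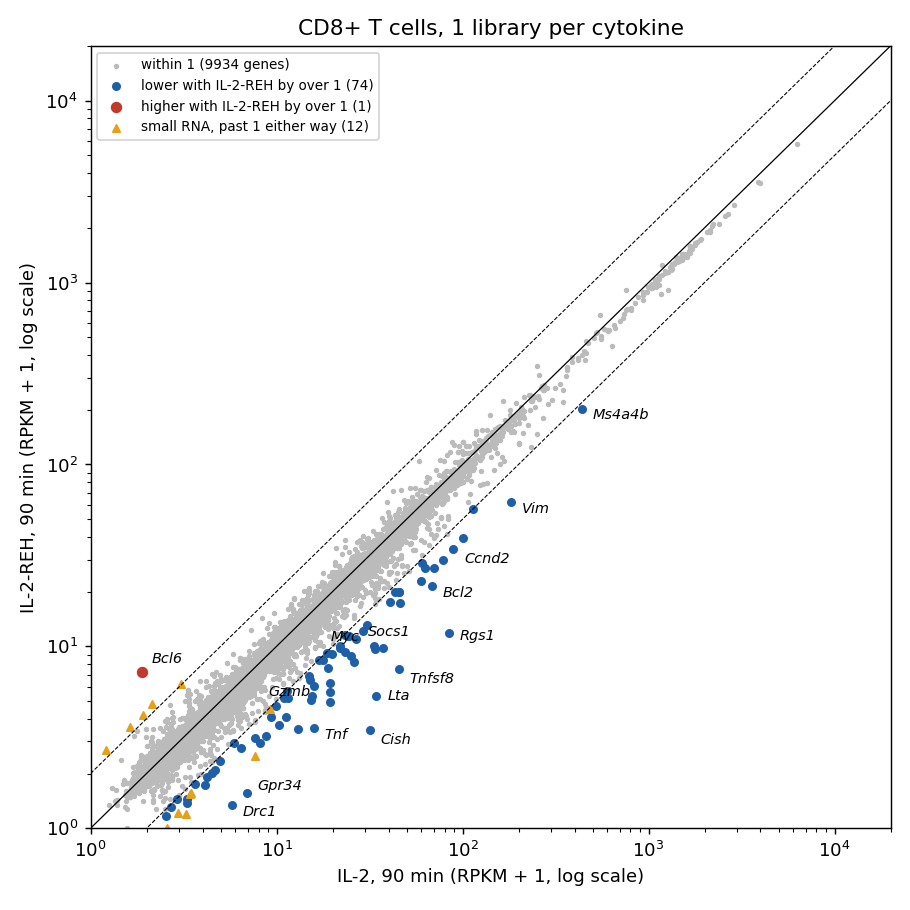
RPKM + 1 of 10021 genes with IL-2 (horizontal) and IL-2-REH (vertical) at 90 min in CD8+ T cells, both axes logarithmic, 1 library per cytokine, with dashed lines at log2 ratios of -1 and 1. The 74 blue genes lie below the lower line over a wide range of expression, from Drc1 to Ms4a4b, whereas Bcl6 is the single longer gene above the upper line.

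Cish, an inhibitor that binds the activated IL-2 receptor and is a classical STAT5 target, had the lowest ratio of all genes. It stood at 1.87 RPKM in unstimulated cells, 30.6 after IL-2 and 2.47 after IL-2-REH at 90 min, and 26.1 and 2.45 at 4 hr. Both IL-2 libraries were thus far above the other 3, and both IL-2-REH libraries were close to the unstimulated level. The 12.4-fold lower RPKM with IL-2-REH at 90 min rested on 4598 and 332 reads and gave a log2 ratio of -3.19. Cish (NM_009895) lies on chromosome 9 from 107296659 to 107302784 (GRCm38.p6), where its exons overlap those of Gm17040 and Gm17041, whose reads cannot be assigned with certainty.

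Promoter letters were examined because STAT5 is the factor that IL-2 activates in these cells. RefSeq start sites on GRCm38.p6 gave windows from 250 bases before to 50 bases after the start for 57 of the 81 lower genes and for 7841 of all genes measured. The palindrome TTCNNNGAA, the sequence bound by STAT5, was searched in these windows and reads the same on both strands. It was found for 17 of the 57 lower genes (29.8%), for 668 of the 7841 measured genes (8.52%) and in 2726 of all 32851 windows (8.3%). Among genes with a single window, the shares were 28.3% of 46 lower genes and 7.24% of 6301 measured genes. Other letters also differed, so the windows of the lower genes were not alike to the rest in general. TGANTCA, the AP-1 site, was found in 19.3% against 5.48%, TATAAA on either strand in 21.1% against 8.12%, and TGACGTCA in 0 of the 57 against 3.93%. A match is a description of the letters and does not show binding. The capitals below mark TTCNNNGAA, each sequence is given 5′ to 3′ on the strand of the gene, and those of Lta, Socs3 and Bcl6 lie before start sites inside the annotated gene. The genes shown are examples that hold the palindrome, not the genes with the lowest ratios. Of the 7 genes below -2 a match was found for Cish and Lta. A gene without a window could not be searched, so a missing match need not mean a missing palindrome.
Cish, chr9:107296654-107296683, plus strand: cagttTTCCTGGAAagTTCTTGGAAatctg
Lta, chr17:35205485-35205513, minus strand: accatcactcTTCAGGGAAccaggcttcc
Lta, chr17:35205349-35205377, minus strand: ccgactccctTTCCCAGAAcgcagtagtc
Tnfrsf18, chr4:156026213-156026241, plus strand: tgctctacacTTCACAGAAggcctttaca
Igtp, chr11:58199501-58199529, plus strand: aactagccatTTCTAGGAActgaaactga
Socs3, chr11:117969502-117969530, minus strand: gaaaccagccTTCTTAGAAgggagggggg
Fas, chr19:34290556-34290584, plus strand: tcaaagcgatTTCTGGGAAgacctgaata
Irf8, chr8:120736177-120736223, plus strand: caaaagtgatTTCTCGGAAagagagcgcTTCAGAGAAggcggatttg
Bcl6, chr16:23981353-23981461, minus strand: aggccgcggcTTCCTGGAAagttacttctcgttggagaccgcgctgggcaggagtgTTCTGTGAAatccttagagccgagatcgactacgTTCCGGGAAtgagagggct

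In Cish the pair of palindromes lies at the start site, with their first bases at positions 1 and 12 counted from it. The sites of Lta begin 152 and 16 bases before an annotated start that lies inside the gene, downstream of its outermost start. Bcl6, which had the opposite direction, also held 3 palindromes in 1 window, so the letters alone did not separate genes that were lower from the gene that was higher.

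Receptor and kinase genes, like most genes, differed little between the libraries. Of the 18 genes in a list of IL-2 receptor chains, JAKs, STATs and their phosphatases, 0 were past 1 in either direction. As only 0.868% of all genes were past 1, this count does not set the list apart. The median was -0.13, near that of all genes. Il2ra stood at 1.58 RPKM in unstimulated cells, 4.71 after IL-2 and 2.81 after IL-2-REH at 90 min, and 6.34 and 3.20 at 4 hr. Its log2 ratio at 90 min was -0.58, and this low level of the α chain in all 5 libraries contrasted with Il2rb, at 188 and 149 RPKM (ratio -0.33), and Il2rg, at 188 and 172 (ratio -0.13). Jak1 was at 193 and 218 RPKM (ratio 0.18) and Jak3 at 11.3 and 10.1 (ratio -0.16). The signal carriers Stat5a (25.1 and 30.6 RPKM, ratio 0.28) and Stat5b (48.3 and 56.3, ratio 0.22) were slightly higher with IL-2-REH. The lowest ratio of the list was that of Ptpn6, the phosphatase SHP-1, at -0.69 (33.1 and 20.1 RPKM).

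Feedback inhibitors differed among themselves. In the SOCS family, 4 of 8 members were lower by over 1 (Cish, Socs1, Socs2 and Socs3), against 0.808% of all genes. Higher were 0, and the median was -0.68. Socs1, which blocks JAK kinases, stood at 9.25 RPKM in unstimulated cells, 36.2 after IL-2 and 8.76 after IL-2-REH at 90 min, and 42.3 and 9.81 at 4 hr. The IL-2-REH libraries again sat at the unstimulated level, and the 90 min log2 ratio was -1.93. Socs3, another JAK inhibitor, was at 34.01 RPKM unstimulated, 44.7 and 18.8 at 90 min and 39.8 and 11.3 at 4 hr, with a ratio of -1.21. Socs2 was weakly expressed, at 0.557 RPKM unstimulated and 2.30 and 0.441 at 90 min (355 and 61 reads), and its ratio was -1.19. Socs4, Socs5, Socs6 and Socs7 lay between -0.17 and 0.09.

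Over a list of 35 STAT5 and IL-2 target genes, 33 were expressed, 20 were lower by over 1 with IL-2-REH, Bcl6 was higher and 12 were within 1. Of all genes, 0.808% were lower by over 1. This list, like the others, was chosen with earlier results of these data known, so its count is a description only. The median of the list was -1.21, against -0.07 for all genes. Of the 7 genes that the study names for CD8+ T cells, 6 were lower by over 1 (Tnf, Lta, Bcl2, Myc, Ifng and Gzmb) and Cdk6 was at -0.95. The study picked Cdk6, Tnf and Lta from RNA-seq of these cells, so the direction of those genes is not independent evidence. Ramp3, a receptor chaperone that it names for Tregs, was at 0.17 with 18.8 and 21.3 RPKM.

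**Figure D2:**
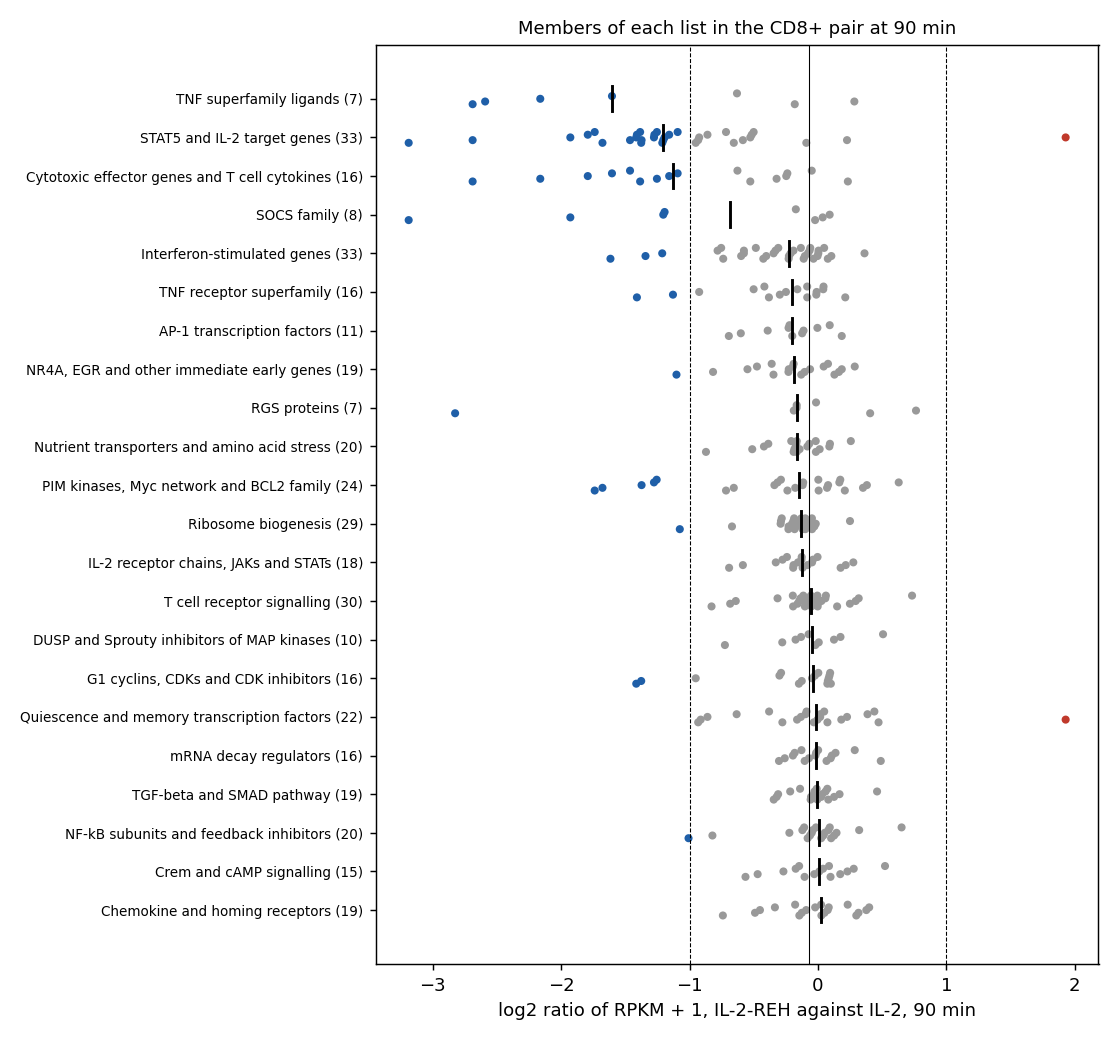
Log2 ratios of RPKM + 1 at 90 min, IL-2-REH against IL-2 in CD8+ T cells, for the measured members of 22 lists (number in parentheses), with list medians as bars, the median of all genes as a solid line and dashed lines at -1 and 1. TNF ligands, STAT5 targets, effector genes and the SOCS family hold most of the blue points below -1. The IL-2 receptor, AP-1 and T cell receptor lists have none past 1, where 0.868% of all genes are.

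Survival and growth genes were among those with less RNA. In the list of PIM kinases, the Myc network and the BCL2 family, 5 of 24 expressed members were lower by over 1. Higher were 0, and the median was -0.15, while 0.808% of all genes were lower by over 1. Bcl2, the mitochondrial survival factor, stood at 30.4 RPKM in unstimulated cells, 67.5 after IL-2 and 20.4 after IL-2-REH at 90 min, and 98.5 and 13.4 at 4 hr. Its log2 ratio at 90 min was -1.68 on 33832 and 9157 reads, and both IL-2-REH libraries were below the unstimulated one. The related survival factor Bcl2l1 (Bcl-xL) had a ratio of -1.28 at a low level of 6.61 and 2.14 RPKM, whereas Mcl1 (158.3 and 100.2 RPKM) reached -0.66.

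Myc, the growth regulator, was at 39.4 RPKM unstimulated, 32.3 after IL-2 and 8.98 after IL-2-REH at 90 min, and 70.0 and 10.8 at 4 hr. At 90 min the IL-2 library was therefore near the unstimulated level, and the ratio of -1.74 between the cytokines came with an IL-2-REH level below it. The kinase Pim2 had a ratio of -1.37 (58.7 and 22.0 RPKM), and Pim1 one of -0.72 (128 and 77.2). Mxd1, a dimerization partner of Max that opposes Myc, was also lower, at 28.1 and 11.2 RPKM (ratio -1.26). Of the pro-apoptotic genes, Bbc3 (PUMA) was at 0.63 (4.83 and 8.02 RPKM) and Bcl2l11 (BIM) at 0.38 (27.8 and 36.5), whereas Bax (-0.18), Bak1 (-0.29), Bad (-0.12), Bid (-0.12) and Pmaip1 (-0.24) were below 0.

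Cell cycle genes differed at the D cyclins. Ccnd2 stood at 70.0 RPKM in unstimulated cells, 88.2 after IL-2 and 33.3 after IL-2-REH at 90 min, and 132 and 29.7 at 4 hr, with a 90 min ratio of -1.38. Ccnd3 had 44.9 and 16.2 RPKM at 90 min and a ratio of -1.42, and its exons overlap Bysl. Their partner kinase Cdk6 was at 4.69 RPKM unstimulated, 6.63 and 2.95 at 90 min and 25.2 and 2.47 at 4 hr. The ratio of Cdk6 was -0.95 at 90 min and -2.92 at 4 hr, so most of that difference was seen only in the later pair. The other members lay closer to 0, and with Ccnd2 and Ccnd3 as the 2 of 16 past 1, the list of G1 cyclins, CDKs and inhibitors had a median of -0.03. Cdk4 (ratio -0.15) and the inhibitor Cdkn1b (0.08) are examples. Past 1 were 0.868% of all genes.

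Ligands of the TNF superfamily, which signal to death and costimulatory receptors on other cells, had the lowest median of the lists other than the genes named in the study, at -1.60 over 7 expressed members of 18. Lower by over 1 were 4 of the 7, against 0.808% of all genes. Lta, lymphotoxin α, stood at 3.21 RPKM in unstimulated cells, 33.4 after IL-2 and 4.33 after IL-2-REH at 90 min, and 43.4 and 4.37 at 4 hr, with a 90 min ratio of -2.69 (3212 and 373 reads). Tnf, its neighbor on chromosome 17 of GRCm38.p6 (35199367 to 35202007, against 35203165 to 35205578 for Lta), stood at 2.03 RPKM unstimulated, 14.9 and 2.55 at 90 min and 20.8 and 1.77 at 4 hr. The ratio of Tnf was -2.16, and like Lta it was high in both IL-2 libraries and near the unstimulated level in both others.

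Tnfsf8, the CD30 ligand, was at 16.1 RPKM unstimulated, 44.3 and 6.51 at 90 min and 45.6 and 11.1 at 4 hr, so both IL-2-REH libraries were below the unstimulated one. Its ratio at 90 min was -2.59. Fasl, the ligand of the death receptor Fas, had 5.83 RPKM unstimulated, 14.3 and 4.04 at 90 min and 9.21 and 3.03 at 4 hr, and a ratio of -1.60. Ltb, the membrane partner of lymphotoxin α, was abundant at 201 and 130 RPKM and had a ratio of -0.63, while Tnfsf14 (-0.18) and Tnfsf10 (0.28) were expressed below 3 RPKM in both libraries. The receptors of this superfamily differed less, with a median of -0.20 and 2 of 16 lower by over 1, against 0.808% of all genes. Tnfrsf18 (GITR) had 19.3 RPKM unstimulated, 78.0 and 28.7 at 90 min and 66.8 and 23.1 at 4 hr, for a ratio of -1.41. Fas itself had 20.9 and 8.99 RPKM at 90 min and a ratio of -1.13.

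Among cytotoxic effector genes and T cell cytokines, 9 of 16 expressed members were lower by over 1, against 0.808% of all genes. Higher were 0, and the median was -1.13. Gzmb, granzyme B, stood at 8.19 RPKM in unstimulated cells, 18.3 after IL-2 and 4.58 after IL-2-REH at 90 min, and 31.7 and 2.0 at 4 hr. The ratio was -1.79 at 90 min and -3.44 at 4 hr. Other granule genes were closer to 0 at 90 min, with Gzma at -0.63, the pore former Prf1 at -0.53 and Gzmm and Gzmk at -0.25 and -0.24. Osm, the cytokine oncostatin M, had 4.57 RPKM unstimulated and 7.82 and 2.2 at 90 min, for a ratio of -1.46.

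Ifng, interferon γ, differed from these in that its level was highest in the unstimulated library, at 7.89 RPKM, against 3.25 after IL-2 and 0.905 after IL-2-REH at 90 min and 1.70 and 0.561 at 4 hr. Its ratio of -1.16 rested on 273 and 68 reads. The study, by contrast, reports Ifng as raised over unstimulated cells by IL-2 in qPCR at 4 hr. The chemokine genes Ccl3 (11.1 RPKM unstimulated, 3.13 and 0.732 at 90 min, ratio -1.25) and Ccl4 (12.9, 3.99 and 1.34, ratio -1.09) had the same order of the 3 libraries, as did Xcl1 (21.5, 14.9 and 5.09, ratio -1.39). Ccl5, a chemokine stored by memory CD8+ T cells, was at 188 and 182 RPKM and hardly differed (-0.05).

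**Figure D3:**
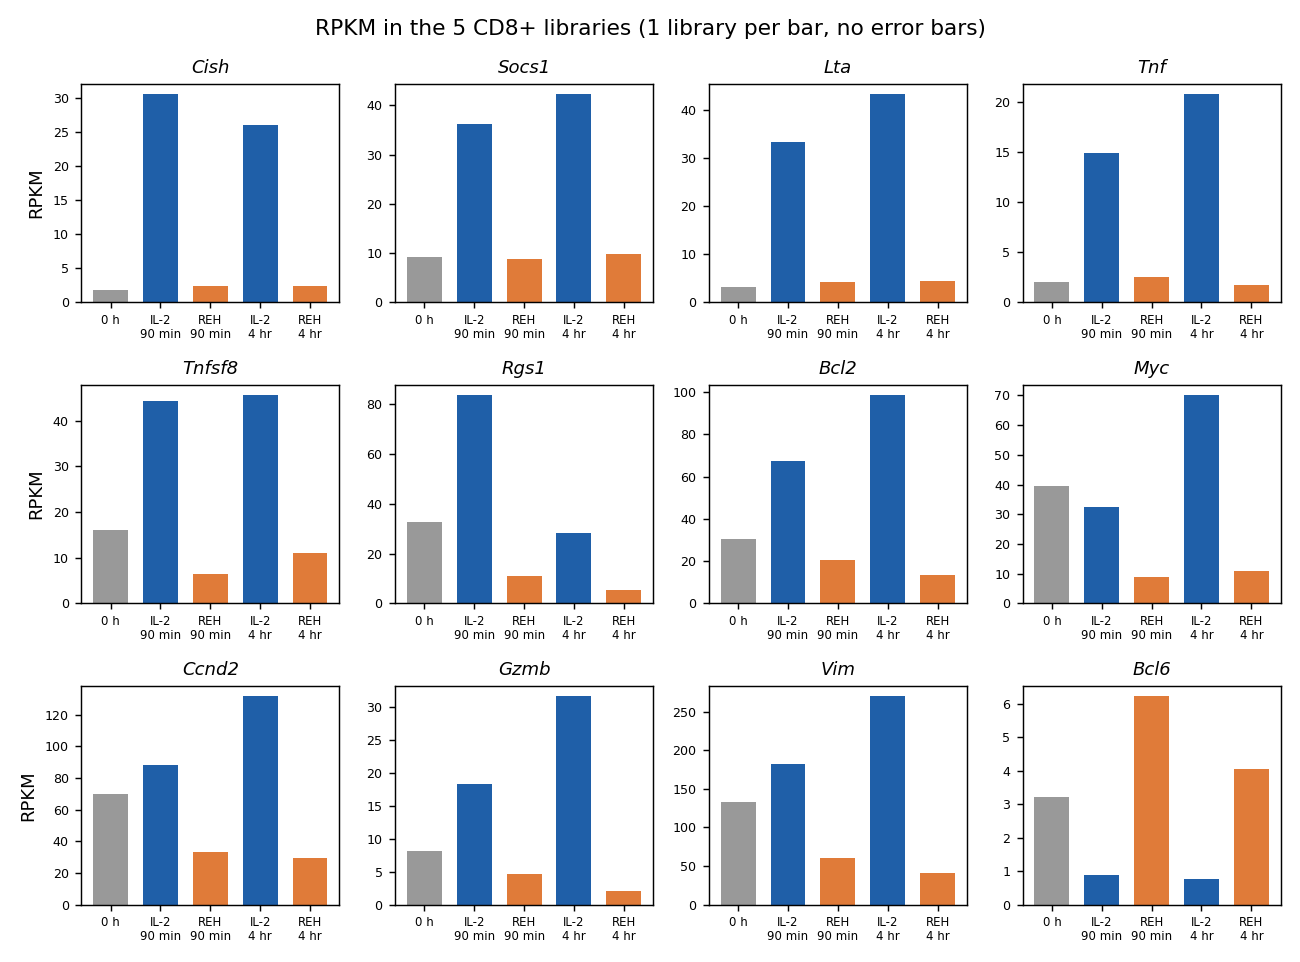
RPKM of 12 genes in the 5 CD8+ libraries (unstimulated gray, IL-2 blue, IL-2-REH orange), 1 library per bar without error bars, each vertical axis starting at 0. Cish, Socs1, Lta and Tnf are high in both IL-2 libraries alone. Tnfsf8, Bcl2, Ccnd2, Gzmb and Vim are lower with IL-2-REH than in the unstimulated 0 h library, which is not matched in time. Bcl6 has the reverse order.

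Of genes in G protein signaling, Rgs1 and Gpr34 were below -2. Rgs1, which shortens G protein signals and so dampens chemokine receptors, stood at 32.8 RPKM in unstimulated cells, 83.5 after IL-2 and 10.9 after IL-2-REH at 90 min, and 28.4 and 5.30 at 4 hr. The ratio of -2.83 at 90 min was the second lowest of all genes (7723 and 904 reads), and Rgs1 (NM_015811) lies on chromosome 1 from 144244669 to 144249104 without an exon overlap with another gene. The other 6 expressed RGS genes lay between -0.19 and 0.76, with 4 of them below 0. Rgs2, at the upper end, was at 25.7 RPKM unstimulated, 6.28 and 11.4 at 90 min and 2.1 and 6.68 at 4 hr. Gpr34, a lysophosphatidylserine receptor, was at 1.78 RPKM unstimulated, 5.92 and 0.559 at 90 min (781 and 66 reads) and 6.46 and 1.47 at 4 hr, with a ratio of -2.15. Gpr83 (1.55 and 0.171 RPKM) and Gpr146 (13.9 and 5.85) both had a ratio of -1.12. Of the chemokine and homing receptors, which position T cells, 0 of 19 were past 1 (0.868% of all genes were), with Cxcr4 highest at 0.40.

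Cytokine receptors other than that of IL-2 were represented by Il4ra, the IL-4 receptor α chain, at 42.2 RPKM unstimulated, 61.6 and 26.0 at 90 min and 69.9 and 26.2 at 4 hr (ratio -1.21), and by Il10ra, with 23.4 and 10.3 RPKM at 90 min (ratio -1.10). Il12rb2, a chain of the IL-12 receptor, had 1.45 RPKM unstimulated and 13.2 and 8.92 at 90 min, for a smaller ratio of -0.52. Il7r, the IL-7 receptor α chain, had the other direction, at 164.1 and 223 RPKM (ratio 0.44).

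Of 33 expressed interferon-stimulated genes, 3 were lower by over 1 (Gm12250, Igtp and Gbp5), against 0.808% of all genes. Higher were 0, and the median was -0.23. These 3 belong to the guanylate binding proteins and immunity-related GTPases, which interferon γ is known to induce. Gm12250 stood at 6.55 RPKM in unstimulated cells, 18.3 after IL-2 and 5.29 after IL-2-REH at 90 min, and 52.7 and 8.95 at 4 hr (ratio at 90 min -1.62). Its neighbor Igtp was at 47.7 RPKM unstimulated, 99.6 and 38.6 at 90 min and 226 and 54.2 at 4 hr (ratio -1.34). Gbp11 lay outside the list and had 12.1 and 2.52 RPKM at 90 min, for a ratio of -1.90. Members of these families are similar in sequence, and Igtp shares exon sequence with Irgm2, so reads may be split between them. Other members of the list were within 1. Of the same families, Gbp4 (-0.78), Irgm2 (-0.75), Tgtp1 (-0.74), Gbp6 (-0.60), Iigp1 (-0.58), Tgtp2 (-0.58) and Irgm1 (-0.43) were also lower. Closer to 0 were Gbp2 (-0.33), Gbp8 (-0.23), Gbp9 (-0.10), Gbp7 (-0.07) and Gbp3 (0.08). Outside these families, examples were Ifit1 (-0.19), Isg15 (-0.23), Isg20 (-0.40), Usp18 (-0.48) and Oasl2 (0.36).

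Transcription factors lower by over 1 included Ikzf4 (Eos), a partner of Foxp3 in Tregs, which stood at 0.577 RPKM in unstimulated cells, 9.29 after IL-2 and 2.69 after IL-2-REH at 90 min, and 6.82 and 2.63 at 4 hr. Its ratio was -1.48, and its IL-2-REH level lay between the unstimulated and IL-2 levels. Foxp3 itself was at 0.999 RPKM after IL-2 and 0.482 after IL-2-REH. Irf8 had 7.13 and 1.93 RPKM (ratio -1.47). Tbx21 (T-bet), Runx3 and Id2, regulators of effector differentiation, were at -0.93, -0.91 and -0.86, just within 1. Nfkbiz, an atypical IκB protein, was at -1.01 (22.3 and 10.6 RPKM) as the 1 of 20 genes of the NF-kB list past 1, and it lay within 1 with each of the 3 other scalings tried, with values of -0.94, -0.95 and -0.93.

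Several of the largest differences lay outside the lists. Drc1, a subunit of the dynein regulatory complex of cilia, had 3.30 RPKM in unstimulated cells, 4.74 after IL-2 and 0.340 after IL-2-REH at 90 min (746 and 48 reads), and 10.49 and 0.171 at 4 hr. Its RPKM was 13.9-fold lower with IL-2-REH at 90 min, the ratio with the added 1 RPKM was -2.1, and at 4 hr that ratio was -3.29. Vim, vimentin of the cytoskeleton, was abundant and stood at 133 RPKM unstimulated, 182 and 60.8 at 90 min and 270 and 41.1 at 4 hr, for a ratio of -1.57. The most abundant gene past -1 was Ms4a4b, a membrane protein of T cells, at 438 RPKM unstimulated, 436 and 202 at 90 min and 726 and 405 at 4 hr (ratio -1.11). Amica1 (Jaml in the annotation), an adhesion molecule, had 17.5 RPKM unstimulated, 18.5 and 3.96 at 90 min and 32.3 and 2.82 at 4 hr, for a ratio of -1.97. In Vim, Ms4a4b and Amica1 the IL-2 level at 90 min was closer to the unstimulated one than the IL-2-REH level was, and the latter lay below it.

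Further genes among the 15 lowest ratios were Sh3bp1 at -1.81 (32.8 and 8.64 RPKM), and Fam46a (Tent5a) at -1.67 (25.2 and 7.21). Emp1, an epithelial membrane protein, was not among them at -1.46, but stood out by 0.696 RPKM in unstimulated cells against 10.3 and 3.10 with the cytokines at 90 min. Flt3l, the ligand of the FLT3 receptor of dendritic cell progenitors, was at -1.5 (24.0 and 7.83 RPKM). Samhd1, a nucleotide hydrolase that restricts viruses, was just past the threshold at -1.01 (113 and 55.7 RPKM). Centering on the median of all genes, -0.07, takes Samhd1 within 1.

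Bcl6, the repressor that favors memory over effector programs, was the 1 gene over 200 bases that was higher by over 1 with IL-2-REH. It stood at 3.21 RPKM in unstimulated cells, 0.898 after IL-2 and 6.23 after IL-2-REH at 90 min (205 and 1274 reads), and 0.777 and 4.07 at 4 hr. Both IL-2 libraries were below and both IL-2-REH libraries above the unstimulated level, and RPKM at 90 min was 6.94-fold higher with IL-2-REH (log2 ratio of RPKM + 1 1.93). The gene (NM_009744) lies on chromosome 16 from 23965050 to 23988866 of GRCm38.p6, and its exons overlap the gene model Gm37419. The next longer genes were Fam101b (Rflnb), an actin regulator, at 0.84 (57.3 and 103 RPKM), the sulfate transporter gene Slc26a11 at 0.77, Rgs2 at 0.76, Arl5c at 0.75 and Cd28, the costimulatory receptor, at 0.73. Cd28 stood at 32.3 RPKM unstimulated, 19.9 and 33.8 at 90 min and 11.7 and 36.6 at 4 hr, so the IL-2-REH libraries were near the unstimulated level. Tcf7 (TCF-1), a factor of naive and memory T cells, was at 378 RPKM unstimulated, 249.3 and 346 at 90 min and 201 and 444 at 4 hr, with a ratio of 0.47 at 90 min and 1.14 at 4 hr. In the list of quiescence and memory factors, Bcl6 was the 1 of 22 past 1 and the median was -0.02.

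Other early response lists had few or no members past 1, as had all genes (0.868%). Of the AP-1 factors, 0 of 11 were past 1 (median -0.20), with Jund at -0.69 and Jun at -0.60, and Fos was at 116 RPKM in unstimulated cells against 3.54 and 3.20 with the cytokines. Among NR4A, EGR and other immediate early genes 1 of 19 was lower by over 1 (Csrnp1, -1.10), and Nr4a3, at 3.40 RPKM unstimulated, had 19.0 and 16.1. None of the 10 DUSP and Sprouty genes (median -0.05), the 15 genes of Crem and cAMP signaling (0.01), the 19 of the TGF-β and SMAD pathway (-0.01), the 16 mRNA decay regulators (-0.02), the 20 nutrient transporter and amino acid stress genes (-0.17) and the 30 genes of T cell receptor signaling (-0.05) was past 1. Their lowest members included Dusp5 (-0.72), the amino acid stress gene Ddit4 (-0.87) and the kinase Prkcq (-0.83), and Gem of the immediate early list was at -0.82. Crem, a cAMP-responsive repressor, was at 2.12 RPKM unstimulated and 26.0 and 18.5 at 90 min, and Skil, a SMAD inhibitor, at 11.2 and then 56.2 and 59.2. These genes were thus far above the unstimulated library with either cytokine, a contrast in which time in culture and cytokine cannot be told apart. In the NF-kB list, Tnfaip3 (A20) was at 260 RPKM unstimulated and 38.4 and 60.8 at 90 min (ratio 0.65). Ribosome biogenesis genes had Rrp1b (-1.08) as the 1 of 29 past 1 and a median of -0.13, with 28 of the 29 below 0, against 7065 of all 10021 genes.

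The 4 hr libraries, which share no library with the 90 min pair, had the same direction for nearly all genes of the lower set. Of the 81 genes, 55 were also below -1 at 4 hr, where 168 of all 10021 genes (1.68%) were, and 78 were below 0, against 38.2% of all genes. The 81 genes were picked by their 90 min CD8+ ratio, a choice that favors values nearer 0 in any other pair. The median 4 hr ratio of the 81 was -1.33, and that of all genes was 0.08. All 7 genes below -2 at 90 min were below -1 at 4 hr, and all 74 longer genes were below 0. The 3 that were above 0 were small RNAs.

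The difference at 4 hr was wider in several genes that lay within 1 or near it at 90 min. Beside Cdk6 and Gzmb, Il2rb was at -0.33 at 90 min and -1.08 at 4 hr, Gbp2 at -0.33 and -2.07, Slc7a5, an amino acid transporter, at -0.02 and -1.69, and Il7r at 0.44 and 1.70. Among all 10021 genes, 168 (1.68%) were below -1 at 4 hr against 81 (0.808%) at 90 min, so list counts could rise with this share. Over lists, 13 of the 33 interferon-stimulated genes were below -1 at 4 hr against 3 at 90 min, and 7 of the 29 ribosome biogenesis genes against 1. The SOCS family stayed at 4 of 8 at both times, and the STAT5 and IL-2 targets were at 20 and 21 of 33. Among effector genes and cytokines the count went from 9 to 7 of 16 (median -1.13 and -0.92), in the PIM, Myc and BCL2 list from 5 to 4 of 24, and among TNF receptors from 2 to 1 of 16. Other genes had a smaller difference at 4 hr, among them Fam46a (-1.67 and -0.36), Xcl1 (-1.39 and -0.38), Gab3, a signaling adaptor (-1.54 and -0.67), and Mxd1 (-1.26 and -0.46).

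**Figure D4:**
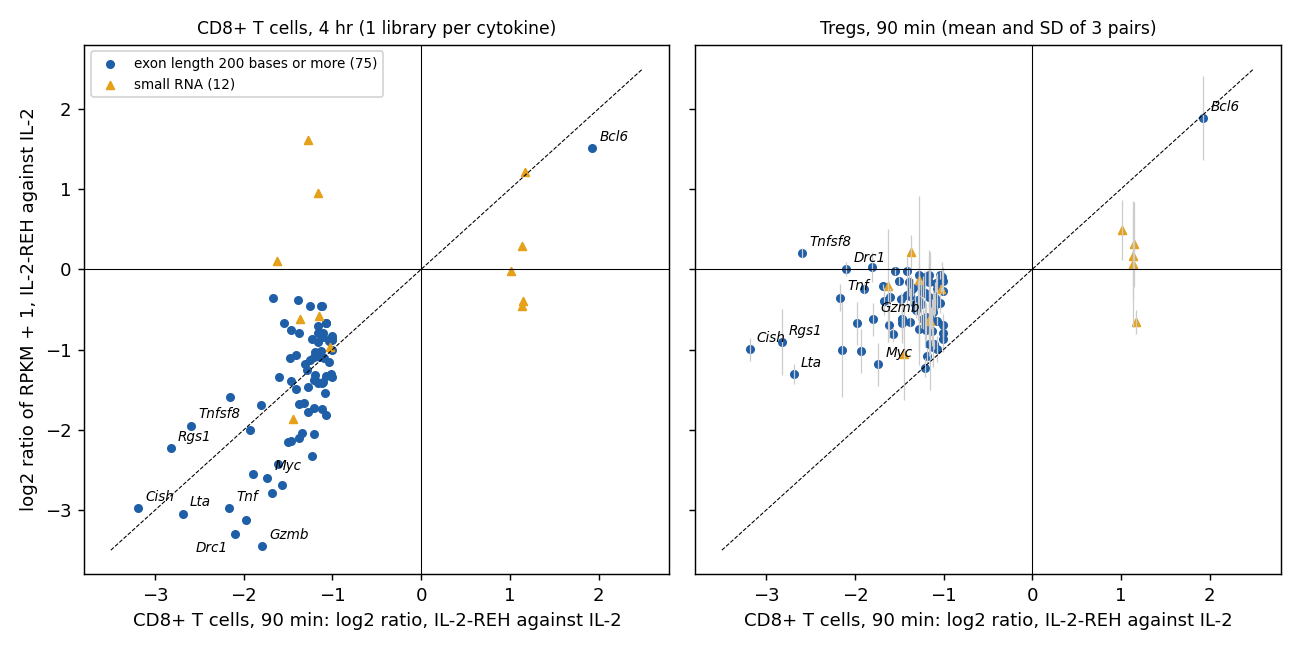
Log2 ratios of the 87 genes past 1 in the CD8+ pair at 90 min (horizontal) against the CD8+ pair at 4 hr (left) and the mean of the 3 Treg pairs at 90 min (right, bars show SD), with the dashed diagonal marking equal ratios. At 4 hr all 74 longer lower genes lie below 0 with a spread around the diagonal, while in Tregs most of them lie between 0 and -1.3, with Tnfsf8 above 0 and Bcl6 near the diagonal.

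In Tregs at 90 min, the same contrast was smaller for these genes. In the 3 same-numbered pairs of Treg libraries, 5, 12 and 8 of the 81 genes were below -1, where 22, 28 and 31 of all 10021 genes (0.22%, 0.279% and 0.309%) were. Their median ratios were -0.46, -0.47 and -0.47, against medians between -0.01 and 0.05 for all genes. Below 0 in all 3 Treg pairs were 66 of the 81, against 16.7% of all genes. Cish had a mean of -1.0 ± 0.14 (SD, n = 3 pairs) in Tregs and -3.19 in CD8+ T cells. The mean for Socs1 was -1.01 ± 0.27 against -1.93, and for Bcl2 it was -0.21 ± 0.03 against -1.68. The 2 genes below -1 in all 3 Treg pairs were Lta (-1.31 ± 0.12) and Rnf19b, a ubiquitin ligase (-1.22 ± 0.12), whose ratio in CD8+ T cells was -1.21. Adam19, a metalloprotease, was likewise close, at -1.08 ± 0.10 in Tregs and -1.19 in CD8+ T cells.

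Other genes of the CD8+ set hardly differed in Tregs. Drc1 was at 0.00 ± 0.08, Sh3bp1 at 0.03 ± 0.19, Ccnd3 at -0.02 ± 0.18 and Il4ra at -0.09 ± 0.07. Tnfsf8 was the 1 gene of the 81 that was above 0 in all 3 Treg pairs, at 0.17, 0.28 and 0.16. Bcl6 was higher with IL-2-REH in both cell types, at 1.28, 2.22 and 2.15 in Tregs (mean 1.88 ± 0.52) and 1.93 in CD8+ T cells. With 1 CD8+ library per cytokine, these differences between the cell types were not tested.

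Since CD8+ replicates are lacking, Treg libraries of the same cytokine give the nearest view of the spread between replicates, in another cell type. At 90 min, 50 to 520 genes differed by over 1 between Treg libraries of the same cytokine (SD of the log2 ratio 0.26 to 0.47), whereas 87 did in the CD8+ pair (SD 0.22) and 36 to 41 in the same-numbered Treg pairs of the 2 cytokines. The upper part of this range came from Treg replicate 1, set against replicates 2 and 3 (322 and 520 genes for IL-2, 337 and 415 for IL-2-REH). Replicates 2 and 3 differed in 75 genes (SD 0.29) for IL-2 and in 50 (SD 0.26) for IL-2-REH. The CD8+ count of 87 was above both of these, and lay within the replicate range only when replicate 1 was included. The SD of the CD8+ pair was below that of every replicate comparison. For Cish the largest difference between Treg replicates of a cytokine was 0.48, for Rgs1 0.72, for Lta 1.17, for Tnfsf8 0.21 and for Bcl6 0.96. That of Socs1, at 1.59, came close to its CD8+ ratio of -1.93, and that of Ifng, at 2.37, exceeded its ratio of -1.16.

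The 12 small RNAs past 1 rested on few reads and are uncertain. The library kit captures polyadenylated RNA, and several of these small RNAs lie within longer genes. Mir6974, inside the Lta gene on chromosome 17 (35204475 to 35204557), had 13 reads after IL-2 and 1 after IL-2-REH. Mir24-1 had the most reads of the lower set, 39 and 15, and a ratio of -1.03. Of the 7 lower small RNAs, 4 were below 0 at 4 hr, and of the 5 higher ones 2 were above 0.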

How the data were processed

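RNA from 5 CD8+ T cell and 15 Treg libraries was sequenced by the authors as single-end reads and mapped to mm10 (GRCm38). The submitters' processing notes name Bowtie2 2.2.6, TopHat2 2.1.1, SAMtools 0.1.8 and bedtools 2.25.0. The authors kept uniquely mapped reads and deposited, for 31682 RefSeq transcripts (23992 symbols), read counts on exons without normalization. The authors also deposited RPKM, the counts scaled to exon length and mapped reads. Whether strand was used in counting is not given in the sources used here, so reads in overlapping genes are uncertain.

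Each symbol was represented by the transcript with most reads over all 20 libraries. Log2 ratios of RPKM + 1 were taken for genes averaging 1 RPKM or more in the 5 CD8+ libraries, and counted past 1 and 2 without a test. Exact 95% intervals (Clopper-Pearson) of read ratios cover counting error only, and 3 reads was the floor for folds. Alternatives were a pseudocount of 0.1, a minimum of 5 RPKM or none, centering on medians, edgeR 4.0.16 TMM and DESeq2 1.42.0 size factors (R 4.3.3), the longest transcript and, added after the data had been seen, exons of at least 200 bases. The steps were tested on simulated data. Tools were Python 3.11.15, numpy 2.4.6, pandas 2.3.3, scipy 1.17.1 and matplotlib 3.10.9.

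Named genes were those past 2, the 15 lowest and 15 highest ratios, and from 23 lists the members past 1, the extremes and those whose role a sentence needs. Ms4a4b, Vim, Samhd1 and other genes past 1 outside the lists were named after their values were seen. The members and lists were chosen with earlier results of these data known. Gene positions and promoters came from RefSeq on GRCm38.p6. Values of a few list members are not reported here.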

Additional observations from a re-analysis of the deposited data

Results flagged for a closer look

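Tnfsf8, the CD30 ligand, was lower with IL-2-REH than with IL-2 in the CD8+ pair at 90 min (log2 ratio -2.59). It was slightly higher in all 3 Treg pairs (0.17, 0.28 and 0.16), so the ratios had opposite signs. The CD8+ value comes from 1 pair. The Treg ratios were about the size of its largest difference between Treg replicates of a cytokine, and thus near no change. The other results with opposite signs were small RNAs. Mir7646 (-1.62 at 90 min, 0.10 at 4 hr), Mir7068 (-1.27 and 1.61) and Mir7675 (-1.16 and 0.95) had opposite directions in the 2 CD8+ pairs. So did Mir5123 (1.02 and -0.02), Snord73a (1.14 and -0.46) and Mir6910 (1.15 and -0.40). Mir5116 was at 1.17 in the CD8+ pair and at -0.66 ± 0.15 (SD, n = 3 pairs) in Tregs, below 0 in each pair. Each of these 7 small RNAs had at most 27 reads in either 90 min library. The differences between the pairs or cell types were not tested.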

How the results depend on the processing

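No paired analysis was possible because the result comes from no test, with 1 CD8+ library per group, and for the same reason no replicate could be left out. Of the 87 genes past 1, all 87 remained so with the longest transcript, 78 with centering or DESeq2 size factors and 79 with TMM, and 0 turned direction. All 87 also remained with a pseudocount of 0.1 and without a filter, which was certain beforehand. A smaller pseudocount can only widen a ratio, and the filter leaves ratios unchanged. With a minimum of 5 RPKM, 58 of the 87 genes passed the filter, at unchanged ratios. With a pseudocount of 0.1, 134 genes were lower and 13 higher by over 1, 20 lower and 2 higher by over 2, and 2 immediate early genes, 1 quiescence and memory factor and 1 nutrient or amino acid stress gene were lower by over 1, which follows from less shrinkage of weakly expressed genes. The genes higher by over 1 numbered 0 with a minimum of 5 RPKM, 10 without a filter and 1 with exons of at least 200 bases. The NF-kB list had 0 lower genes with centering, TMM or DESeq2 size factors. Depth limits mainly the small RNAs and genes below 1 RPKM.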
